A study of Mus musculus with 6 samples.

Results

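The genes described here are 35 genes of DNA replication and of the supply of its nucleotides, measured by RNA sequencing in E0771 cells, an established mouse breast cancer line of C57BL/6 background. They were taken by name from the gene column of both deposited tables, and all 35 were listed in each, among 11024 genes in the Enniatin A table, 11305 in the 17-AAG table and 10932 in both. By role they were placed in 4 classes, with 10 genes of origin licensing, 19 of helicase activation and the fork, 4 nucleotide enzymes and 2 S phase cyclins. The series holds 6 libraries in 3 groups of 2: cells given Enniatin A (EnnA, a membrane-active depsipeptide of Fusarium fungi) at 7.4 µM for 24 h, cells given 17-AAG (an HSP90 inhibitor of the geldanamycin family) at 0.5 µM for 24 h, and cells given the solvent DMSO, whose time of exposure the labels do not state. All groups were this 1 line, grown for 48 h in RPMI-1640 with serum, per the labels. The tables hold 1 value per gene and group, in FPKM (fragments per kilobase of transcript, scaled to library size), pooled by the authors over the 2 libraries. A level therefore carries no SD, and the depth of each library is unknown. Of 25 markers of cell types, 4 were listed. The epithelial keratin gene Krt8 was at 11.2 FPKM with EnnA, against 17.7 FPKM with DMSO, and at 29.3 FPKM with 17-AAG, against 19.3 FPKM with DMSO in that table. Epcam was at 1.85 FPKM with EnnA, against 1.61 FPKM with DMSO, and at 1.82 FPKM with 17-AAG, against 1.77 FPKM with DMSO in that table. Vim, of mesenchymal cells, was at 1209 FPKM with EnnA, against 2746 FPKM with DMSO, and at 2154 FPKM with 17-AAG, against 3009 FPKM with DMSO. Pdgfra, a fibroblast marker, was at 26.5 FPKM with EnnA, against 10.1 FPKM with DMSO, and at 13.2 FPKM with 17-AAG, against 11.1 FPKM with DMSO. No leukocyte, endothelial or adipocyte marker was listed. The part of these marker values in the results was not tested.

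Before S phase, the origin recognition complex, CDC6 and CDT1 load the ring of MCM2 to MCM7 on DNA, which licenses an origin. CDC45 and the GINS complex then turn the ring into the active helicase, and primase, polymerases alpha, delta and epsilon, the clamp PCNA with its loader RFC, the flap nuclease FEN1, DNA ligase 1 and the single-strand binding protein RPA copy the strands. Ribonucleotide reductase, thymidine kinase and thymidylate synthase feed the fork with deoxynucleotides, and E-type cyclins with CDK2 start S phase. Many of these genes are targets of E2F transcription factors, so their messenger RNA is known to follow the share of cycling cells. In bulk RNA, fewer cells in S phase and less messenger RNA per cell cannot be told apart.

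EnnA lowered most of these genes and raised 3 of the licensing genes, and 17-AAG lowered a smaller number and raised none. A gene was called when the authors' q, their Cuffdiff p adjusted over all listed genes, was under 0.05. With EnnA, 20 of the 35 genes fell, 3 rose and 12 were not called, where 24.9% of all genes in that table were called lower and 24.3% higher. Their median log2 change was -0.45, against -0.01 over all genes. With 17-AAG, 13 fell, 0 rose and 22 were not called, where 16.1% of all genes were called lower and 15.6% higher, and 4682 of all genes and 18 of the 35, 1 of them with a higher value, had an unadjusted p under 0.05. The median was -0.26, against -0.01 over all genes. Each log2 change is log2((compound + 1)/(DMSO + 1)) of the FPKM values, and the SE beside it was worked back from the deposited p. Where that p was 5e-05, the smallest in the tables, the SE can only be bounded from above and is written "at most".

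**Figure D1:**
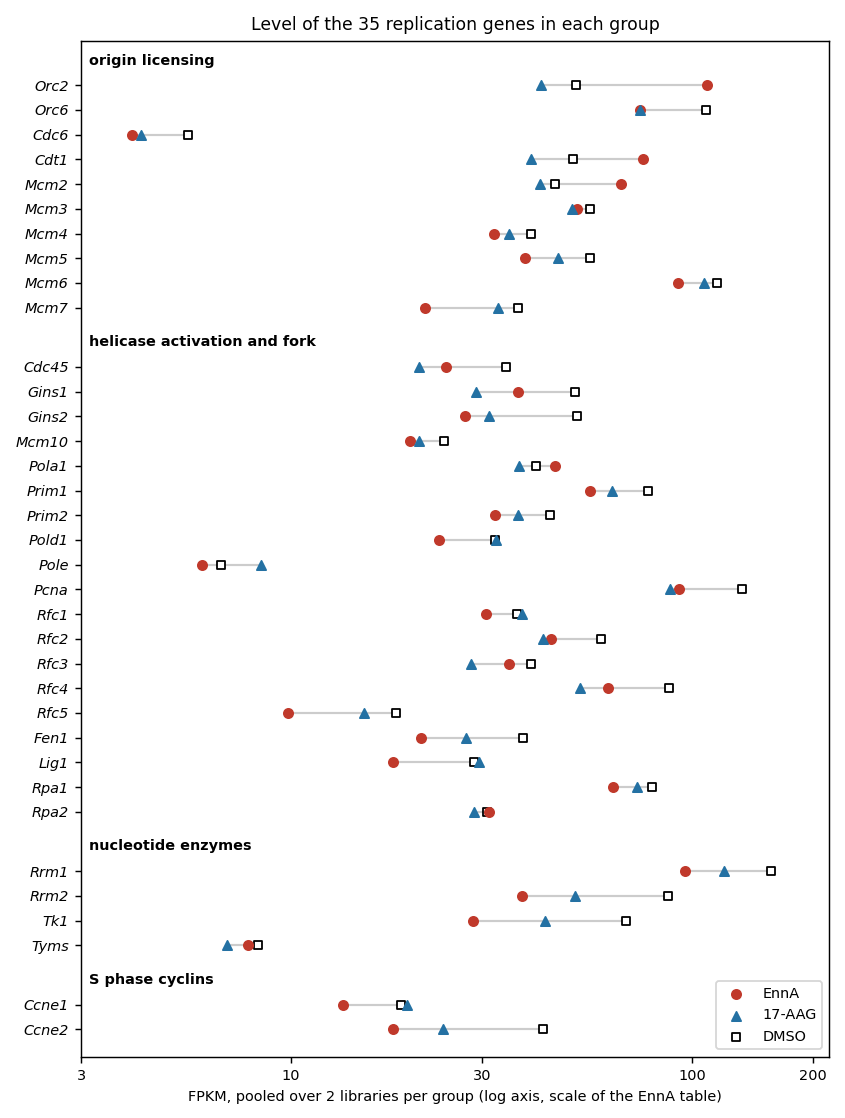
Pooled FPKM (log axis) of each of the 35 genes with EnnA (red circles), 17-AAG (blue triangles) and DMSO (open squares), on the scale of the EnnA table, with no error bars because 1 value per group was deposited. Orc2, Cdt1 and Mcm2 have their EnnA point right of the DMSO point by the widest margins, and most other EnnA and 17-AAG points lie left of it.

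The changes were of moderate size. With EnnA, 3 genes fell and 1 rose by at least 2-fold, and with 17-AAG none of the 35 reached 2-fold. Over all genes, 487 of 11024 fell and 430 rose by that much with EnnA, and 104 of 11305 fell and 157 rose with 17-AAG. With DMSO the genes stood between 5.53 FPKM (Cdc6) and 157.4 FPKM (Rrm1), with a median of 44.1 FPKM, and 32 of the 35 lay above the median of all genes, 14.0 FPKM. The DMSO values of the 17-AAG table are the same values times 1.10, within 1% for 10931 of 10932 genes, so both comparisons share their DMSO libraries. Well expressed genes moved as a class: the median log2 change of the top of 10 groups by expression was 0.23 with EnnA and -0.28 with 17-AAG, against -0.20 and 0.22 in the lowest group. After the median of each expression group was taken off, 24 of the 35 were lower and 3 higher with EnnA (23.6% and 23.3% of all genes), and 7 were lower and 0 higher with 17-AAG (12.2% and 11.9% of all genes). The median of the 35 then was -0.54 with EnnA and -0.12 with 17-AAG. The 6 genes that lost the 17-AAG call in this way were Orc6, Pcna, Rfc2, Rfc3, Fen1 and Rrm1.

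**Figure D2:**
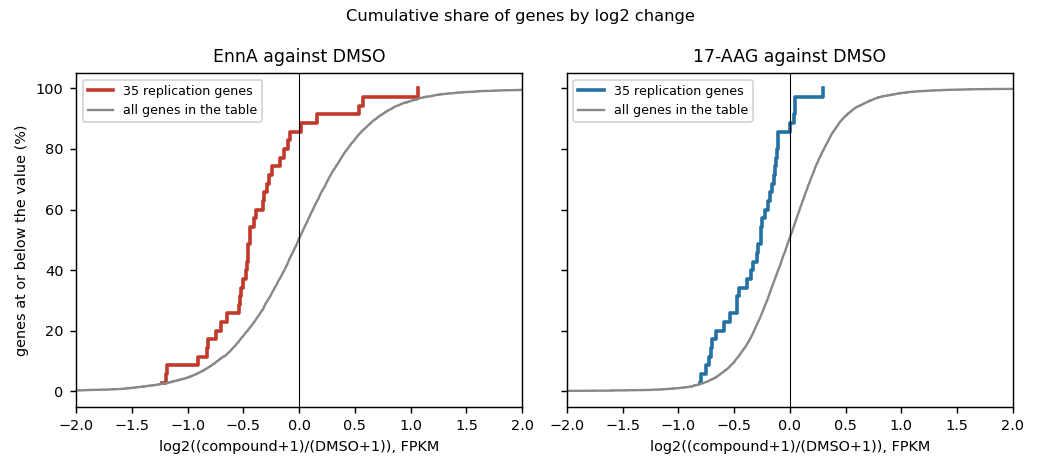
Cumulative share of genes (%) by log2 change, for EnnA against DMSO and 17-AAG against DMSO, with the 35 genes as the coloured line and all genes of the table in grey. The coloured line lies left of the grey one over most of its course, with medians of -0.45 (EnnA) and -0.26 (17-AAG) against -0.01 in both tables, and its upper end with EnnA runs to 1.06, the value of Orc2.

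Origin licensing moved in both directions with EnnA. Orc2, a core subunit of the origin recognition complex, rose to 108.6 FPKM with EnnA, against 51.4 FPKM with DMSO (log2 change 1.06, SE at most 0.26). Cdt1, which brings the MCM ring to the origin, was at 75.6 FPKM with EnnA, against 50.5 FPKM with DMSO (0.57, at most 0.14). Mcm2 rose to 66.6 FPKM with EnnA, against 45.5 FPKM with DMSO (0.54, SE 0.15). These were the genes called higher, and all belong to the loading step. Of the 10 licensing genes, 3 were thus higher and 4 lower, where 24.3% and 24.9% of all genes were called so. The share called higher is near that of all genes. In the authors' deposited table their loci in mm9 were chromosome 1, 58519614 to 58561953 for Orc2, chromosome 8, 125091914 to 125097030 for Cdt1, and chromosome 6, 88833467 to 88848774 for Mcm2.

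Subunits of the same complexes went the other way. Orc6, a further subunit of the recognition complex, fell to 74.2 FPKM with EnnA, against 108.0 FPKM with DMSO (log2 change -0.54, SE 0.14). Cdc6, the ATPase that works beside CDT1, the least abundant of the 35, fell as well, at 4.0 FPKM with EnnA against 5.53 FPKM with DMSO (-0.38, SE 0.13), and lost its call once the expression trend was removed (-0.27). Within the ring, whose 6 subunits are present once each in the protein complex, Mcm7 was at 21.5 FPKM with EnnA, against 36.8 FPKM with DMSO (-0.75, at most 0.18), and Mcm5 at 38.4 FPKM, against 55.8 FPKM (-0.53, SE 0.14). Mcm2 was thus higher while Mcm5 and Mcm7 were lower. Mcm7 overlaps Ap4m1 in RefSeq, so its values are uncertain. Mcm3, Mcm4 and Mcm6 were not called, with log2 changes of -0.10, -0.29 and -0.32 (SE 0.15 each), and Mcm4 and Mcm6 were called lower after the expression trend was removed (-0.39 and -0.55). The levels of the 6 ring genes spanned 21.5 FPKM (Mcm7) to 92.3 FPKM (Mcm6) with EnnA, and 36.8 FPKM (Mcm7) to 115.7 FPKM (Mcm6) with DMSO.

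The proximal promoters of Mcm2, Mcm5 and Mcm7 are shown because these subunits of 1 ring were called in opposite directions with EnnA, and that of Orc2 because it rose the most. The MCM genes were picked for display after their values were seen. Each line gives the 200 bases before the RefSeq start of the gene (build GRCm38.p6), 5′ to 3′ on the strand of the gene. Capitals mark matches, on either strand, to the E2F-type words TTTCCCGC or TTTGGCGC or TTTCGCGC or TTTGCCGC, to CCAAT, or to the CHR word TTTGAA. The windows are chr6:88898781-88898980, minus strand (Mcm2), chr8:75109309-75109508, plus strand (Mcm5), chr5:138171884-138172083, minus strand (Mcm7) and chr1:58505110-58505309, minus strand (Orc2).
Mcm2: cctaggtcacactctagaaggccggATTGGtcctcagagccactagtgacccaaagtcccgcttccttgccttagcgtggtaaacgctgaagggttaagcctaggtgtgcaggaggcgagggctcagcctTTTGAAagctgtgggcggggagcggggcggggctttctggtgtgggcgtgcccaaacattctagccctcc
Mcm5: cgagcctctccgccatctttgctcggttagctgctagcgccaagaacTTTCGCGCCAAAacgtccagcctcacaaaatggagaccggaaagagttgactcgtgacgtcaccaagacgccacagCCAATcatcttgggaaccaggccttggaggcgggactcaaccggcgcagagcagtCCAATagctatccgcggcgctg
Mcm7: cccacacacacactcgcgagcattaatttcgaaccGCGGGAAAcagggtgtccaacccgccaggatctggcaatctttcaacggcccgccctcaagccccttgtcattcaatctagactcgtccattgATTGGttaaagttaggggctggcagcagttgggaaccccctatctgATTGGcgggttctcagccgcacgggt
Orc2: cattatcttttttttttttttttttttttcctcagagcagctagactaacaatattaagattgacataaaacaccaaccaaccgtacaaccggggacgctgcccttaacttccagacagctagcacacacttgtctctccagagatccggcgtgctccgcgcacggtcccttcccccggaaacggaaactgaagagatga

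In the Mcm5 promoter, overlapping E2F-type words begin at bases -153 and -149 before the start, and CCAAT stands at -77 and -22. In Mcm7 an E2F-type word begins at -165, with CCAAT (as ATTGG) at -72 and -26. After the start, Mcm7 has an E2F-type word at base 17 and CCAAT at base 24, and Mcm5 has CCAAT at base 7. The ring genes Mcm3 and Mcm6, not called with EnnA, hold E2F-type words as well. The Mcm2 window holds no E2F-type word, and has CCAAT (as ATTGG) at -175 and the CHR word at -70. Orc2 and Mcm7 have 2 RefSeq starts each, of which the first is shown. The first start of Orc2 has no marked word in the 200 bases before it and CCAAT (as ATTGG) at base 21 after it, and the second has CCAAT (as ATTGG) at -45. The second start of Mcm7 has CCAAT (as ATTGG) at -47. Over the full windows of 250 bases before and 50 after the start, 28 of the 35 genes had an entry, and 10 of these 28 (35.7%) held an E2F-type word, compared with 4.97% of the genes of the EnnA table with an entry and 2.6% of all genes with one. CCAAT was present in 64.3% of the 28, compared with 43.9% of genes of the EnnA table, and the CHR word in 10.7%, compared with 13.7%. With EnnA, the E2F-type word was found in 5 of 15 genes that fell, in 1 of 3 that rose (Cdt1) and in 4 of 10 that were not called. The words within the CCAAT and E2F searches were counted separately where they overlapped.

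With 17-AAG the licensing genes moved less. Orc6 fell to 81.4 FPKM with 17-AAG, against 118.3 FPKM with DMSO (log2 change -0.53, SE 0.15), a call lost once the expression trend was removed (-0.25), and Cdc6 was at 4.62 FPKM, against 6.06 FPKM (-0.33, SE 0.13). No other licensing gene was called. All 10 had a lower value than with DMSO, where 5745 of all 11305 genes did. Once the expression trend was removed, Mcm2, Mcm3 and Mcm6 were above 0 (0.08, 0.05 and 0.17). Orc2 was at 46.1 FPKM with 17-AAG, against 56.3 FPKM with DMSO (-0.28, SE 0.14), and Cdt1 at 43.4 FPKM, against 55.3 FPKM (-0.34, SE 0.15). Of the 6 MCM ring genes, 0 were called, at values between -0.26 (Mcm5) and -0.11 (Mcm6), and also 0 at an unadjusted p under 0.05. Their median was 0.01 after the expression trend was removed.

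Of the factors that turn the loaded ring into a helicase, Cdc45, Gins1 and Gins2 were lower with both compounds. The other GINS genes, described further below, were not called lower with EnnA before the expression trend was removed. Gins3 rose with EnnA (log2 change 0.53) and Gins4 was not called (-0.29), while both fell with 17-AAG (-0.53 and -0.58). With the expression trend removed, Gins4 was called lower with EnnA as well (-0.46). Cdc45 fell to 24.3 FPKM with EnnA, against 34.3 FPKM with DMSO (log2 change -0.48, SE 0.15), and to 22.9 FPKM with 17-AAG, against 37.6 FPKM with DMSO in that table (-0.69, at most 0.17). Gins1 was at 36.8 FPKM with EnnA, against 50.9 FPKM with DMSO (-0.46, SE 0.16), and at 31.7 FPKM with 17-AAG, against 55.8 FPKM with DMSO (-0.80, at most 0.20). Gins2 was at 27.1 FPKM with EnnA, against 51.6 FPKM with DMSO (-0.91, SE 0.24), and at 34.2 FPKM with 17-AAG, against 56.6 FPKM with DMSO (-0.71, SE 0.23). Cdc45, Gins1 and Gins2 all kept the 17-AAG call once the expression trend was removed. Gins2 shares its locus with Gse1, and Cdc45 overlaps Ufd1 in RefSeq, so both are uncertain. Mcm10, which bridges helicase and polymerase, was not called, at -0.27 with EnnA and -0.19 with 17-AAG (SE 0.15 and 0.14).

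The genes of the enzymes that start DNA strands were lower with EnnA, apart from that of the catalytic subunit of polymerase alpha. The primase genes Prim1 and Prim2 fell to 55.6 and 32.2 FPKM with EnnA, against 77.5 and 44.1 FPKM with DMSO (log2 changes -0.47 and -0.44, SE 0.15 each). Pola1, the catalytic subunit of the alpha polymerase that works with primase, was not called (45.5 FPKM with EnnA, against 40.8 FPKM with DMSO, 0.16, SE 0.14). With 17-AAG none of these 3 genes was called, at -0.29 for Prim1, -0.26 for Prim2 and -0.13 for Pola1. Of the replicative polymerases, Pold1, the catalytic subunit of polymerase delta, fell to 23.4 FPKM with EnnA, against 32.3 FPKM with DMSO (-0.45, SE 0.15). Pole, of polymerase epsilon, was not called with EnnA (6.00 against 6.68 FPKM, -0.13, SE 0.13). Whether Pold1 and Pole differed from each other was not tested. With 17-AAG, Pold1 stood at 35.4 FPKM in both groups (0.00, SE 0.15), and Pole was at 9.24 FPKM, against 7.32 FPKM with DMSO (0.30, SE 0.14), not called. Pole was the gene of the set with the highest log2 change with 17-AAG.

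The sliding clamp fell with both compounds. Pcna was at 92.8 FPKM with EnnA, against 133.3 FPKM with DMSO (log2 change -0.52, SE 0.15), and at 96.5 FPKM with 17-AAG, against 146.1 FPKM with DMSO (-0.59, at most 0.15), but the 17-AAG call was lost once the expression trend was removed (-0.31). Its pseudogene copies Pcna-ps1 and Pcna-ps2 make the value uncertain. The 5 clamp loader genes moved by different amounts, with 2 lower with EnnA and 2 lower with 17-AAG. Over all genes, 24.9% were lower with EnnA and 16.1% with 17-AAG. With the expression trend removed, 3 of the 5 were lower with EnnA and 0 with 17-AAG. Rfc5 fell to 9.80 FPKM with EnnA, against 18.2 FPKM with DMSO (-0.83, at most 0.21), and was not called with 17-AAG (-0.25, SE 0.15). Rfc2 fell with EnnA (-0.41, SE 0.15) and with 17-AAG (-0.48, SE 0.15). Rfc3 fell with 17-AAG (-0.48, SE 0.15) and was not called with EnnA (-0.18, SE 0.15). Rfc1, the large subunit, was not called with either compound (-0.25 with EnnA and 0.05 with 17-AAG). Rfc4 overlaps Eif4a2 and Snora81, had the widest errors of the set (-0.50, SE 0.36 with EnnA, and -0.73, SE 0.35 with 17-AAG) and was not called. The promoter of Rfc5, the loader gene with the largest change, lies at chr5:117389024-117389223, minus strand of GRCm38.p6 and holds none of the words searched.
Rfc5: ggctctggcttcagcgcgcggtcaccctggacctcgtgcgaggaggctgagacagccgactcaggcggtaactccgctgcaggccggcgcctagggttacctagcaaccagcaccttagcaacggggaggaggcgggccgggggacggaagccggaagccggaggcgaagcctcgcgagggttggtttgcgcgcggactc

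The genes of lagging-strand joining were lower with EnnA. Fen1, which trims the flaps of Okazaki fragments, was at 21.1 FPKM with EnnA, against 37.8 FPKM with DMSO (log2 change -0.81, SE at most 0.20), and Lig1, which seals them, at 17.9 FPKM, against 28.6 FPKM (-0.65, at most 0.16). With 17-AAG, Fen1 fell to 29.9 FPKM, against 41.4 FPKM with DMSO (-0.46, SE 0.15), and lost its call once the expression trend was removed (-0.34). Lig1 was not called with 17-AAG (32.2 against 31.4 FPKM, 0.04, SE 0.15). Lig1 shares its locus with 6330408A02Rik, and Fen1 overlaps Tmem258 in RefSeq, so both are uncertain. Of the single-strand binding proteins, Rpa1 was not called with EnnA (63.5 against 79.4 FPKM, -0.32, SE 0.15) until the expression trend was removed (-0.49), and Rpa2 stood at 31.1 against 30.8 FPKM (0.01, SE 0.15). With 17-AAG, Rpa1 and Rpa2 were not called, at -0.12 and -0.11. Rpa1 overlaps Smyd4 in RefSeq and is uncertain.

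Nucleotide supply held 2 of the 3 largest falls of the set with EnnA, those of Tk1 and Rrm2, and the other was that of the cyclin gene Ccne2. Tk1, the S phase thymidine kinase of the salvage pathway, was at 28.5 FPKM with EnnA, against 68.3 FPKM with DMSO (log2 change -1.24, SE at most 0.30). Rrm2, the regulated small subunit of ribonucleotide reductase, was at 37.7 FPKM, against 86.9 FPKM (-1.18, at most 0.29). Rrm1, its large subunit and the most abundant of the 35 messages with DMSO, fell to 96.1 FPKM, against 157.4 FPKM (-0.71, at most 0.17). With 17-AAG, Tk1, Rrm2 and Rrm1 fell to 47.0, 56.0 and 131.6 FPKM, against 74.9, 95.2 and 172.4 FPKM with DMSO (-0.66, -0.75 and -0.39, with SE 0.17, at most 0.19, and 0.14). Rrm1 lost its 17-AAG call once the expression trend was removed (-0.10). Tyms, thymidylate synthase, which makes dTMP anew, was not called with either compound (7.79 FPKM with EnnA, against 8.28 FPKM with DMSO, -0.08, and 7.60 FPKM with 17-AAG, against 9.07 FPKM with DMSO, -0.23). Tk1 shares its locus with Afmid, and Tyms has a pseudogene copy, Tyms-ps, so both are uncertain.

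The promoters of the 2 genes of nucleotide supply with the largest falls are shown for comparison with the MCM genes, at chr11:117826015-117826214, minus strand (Tk1) and chr12:24708054-24708253, plus strand (Rrm2) of GRCm38.p6. Rrm2 has CCAAT at -50, and the Tk1 window holds none of the words searched.
Tk1: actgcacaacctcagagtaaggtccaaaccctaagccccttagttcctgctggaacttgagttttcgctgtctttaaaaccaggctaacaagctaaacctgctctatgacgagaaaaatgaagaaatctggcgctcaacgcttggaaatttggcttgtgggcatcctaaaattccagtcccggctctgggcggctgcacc
Rrm2: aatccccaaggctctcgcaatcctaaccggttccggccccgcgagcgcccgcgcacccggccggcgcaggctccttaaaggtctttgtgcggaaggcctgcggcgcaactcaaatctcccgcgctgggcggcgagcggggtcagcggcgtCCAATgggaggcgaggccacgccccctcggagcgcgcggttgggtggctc

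The E-type cyclins were both lower with EnnA. Ccne2 was at 17.9 FPKM with EnnA, against 42.4 FPKM with DMSO (log2 change -1.20, SE at most 0.30), and at 26.2 FPKM with 17-AAG, against 46.4 FPKM with DMSO (-0.80, SE 0.22). It shares its locus with Ints8 and is uncertain. Ccne1 fell to 13.4 FPKM with EnnA, against 18.8 FPKM with DMSO (-0.46, SE 0.15), and was not called with 17-AAG (21.3 against 20.6 FPKM, 0.04, SE 0.15).

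**Figure D3:**
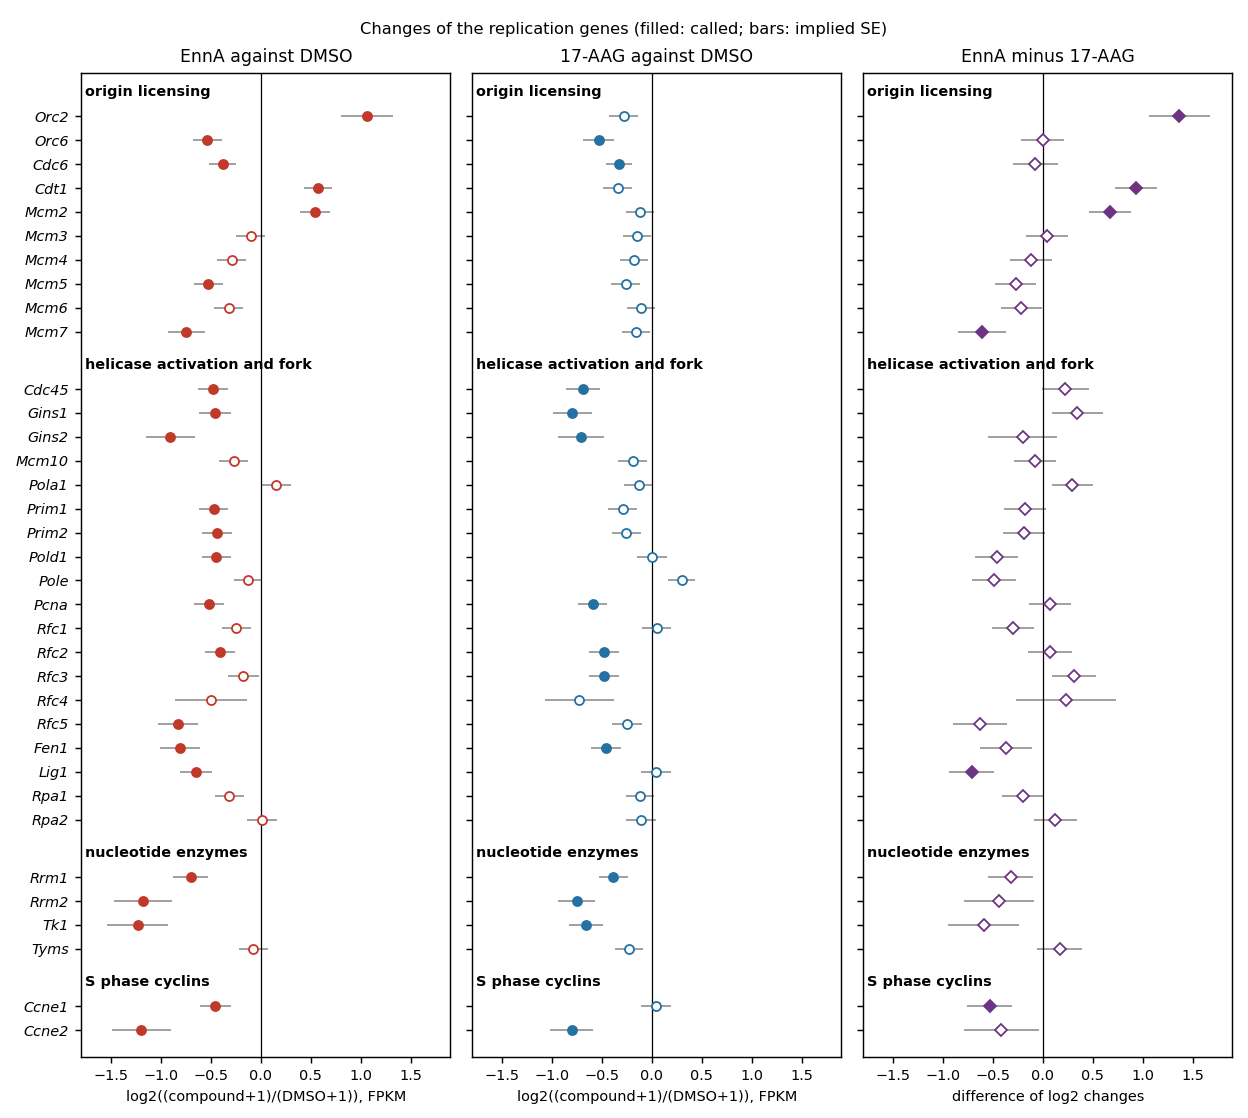
Log2 change of each gene for EnnA against DMSO (left) and 17-AAG against DMSO (middle), and the difference of the deposited log2 changes, EnnA minus 17-AAG (right), with bars for the implied standard error and filled symbols for called genes. Orc2, Cdt1 and Mcm2 stand right of 0 in the left and right panels, and Tk1, Ccne2 and Rrm2 lie farthest left with EnnA, at -1.24, -1.20 and -1.18.

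To compare the compounds directly, each gene was tested on the EnnA change minus the 17-AAG change on the deposited log2 scale, with both implied errors and adjustment over 10922 genes. Of the 35 genes, 3 were higher with EnnA than with 17-AAG and 3 were lower, where 19.3% and 18.9% of all genes were called in these directions. Orc2 differed by 1.37 (SE at most 0.30), Cdt1 by 0.93 (SE at most 0.21) and Mcm2 by 0.67 (SE 0.21). Lig1 differed by -0.72 (SE at most 0.23), Mcm7 by -0.61 (SE at most 0.24) and Ccne1 by -0.53 (SE 0.23). The Ccne1 call was lost when genes under 1 FPKM were left out of the adjustment. At an adjusted p under 0.01, the calls of Mcm7 and Ccne1 were lost. The expression trend ran in opposite directions with EnnA and with 17-AAG, and this test was not run with it removed. With the trend removed, Mcm2 changed by 0.36 with EnnA and 0.08 with 17-AAG, and Rrm1 by -0.93 and -0.10. Which genes would then differ was not tested. Of the 6 genes called, 4 belong to origin licensing, which holds 10 genes. That share is near the share of all genes called in either direction. For the other 29 genes no difference was called, which does not show that the compounds act alike. The differences of Tk1, Rrm2 and Ccne2 were -0.59, -0.44 and -0.42 on the log2 scale, with SE at most 0.36, 0.35 and 0.38. When the bounded errors were replaced by the median error of genes of like expression, Tk1 and Rfc5 (-0.63) were called lower with EnnA than with 17-AAG as well. Both changes are set against the same DMSO libraries, and the test rests on a normal approximation, so no p is given for single genes.

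A wider list of 90 replication genes outside the 35 was examined by class, and its counts stand against 24.9% of all genes called lower and 24.3% higher with EnnA, and 16.1% lower and 15.6% higher with 17-AAG. With the expression trend removed, the genes of the whole list that were lower went to 37 with EnnA, against 34 before, and to 20 with 17-AAG, against 35 before. In helicase loading and firing, 4 of 15 genes fell and 3 rose with EnnA, and 6 fell and 1 rose with 17-AAG (3 lower and 0 higher with the trend removed). The EnnA shares are near those of all genes. Gmnn, whose protein geminin binds and blocks CDT1, fell to 46.8 FPKM with EnnA, against 95.4 FPKM with DMSO (log2 change -1.01, SE at most 0.25), and to 70.2 FPKM with 17-AAG, against 104.5 FPKM with DMSO (-0.57, SE 0.15). Gins3, the partner of Gins1 and Gins2 in the GINS complex, rose with EnnA (17.2 against 11.6 FPKM, 0.53, SE 0.15) and fell with 17-AAG (8.51 against 12.7 FPKM, -0.53, SE 0.15). With EnnA, Gins3 was thus higher where Gins1 and Gins2 were lower. The fourth GINS gene, Gins4, fell with 17-AAG (-0.58) and was not called with EnnA (-0.29) until the expression trend was removed (-0.46). Recql4, a helicase of origin firing, rose with EnnA (1.38, at most 0.34) in a locus shared with Mfsd3. Recql4 was not called with 17-AAG (0.04). Dbf4, which activates the CDC7 kinase, fell with EnnA and with 17-AAG (-0.52 and -0.36), and so did Orc1 (-0.44 and -0.52). The 17-AAG calls of Gmnn and Dbf4 were lost once the expression trend was removed (-0.28 and -0.16).

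At the fork, 10 of 20 further genes fell and 2 rose with EnnA, and 8 fell and 0 rose with 17-AAG (5 lower with the trend removed). Dscc1 and Chtf18, of the alternative clamp loader that serves sister cohesion, fell with EnnA (-1.37, at most 0.34, and -1.06, at most 0.26). With 17-AAG, Dscc1 fell (-0.47, SE 0.16) and Chtf18 was not called (-0.07, SE 0.14). The nuclease gene Dna2 fell with EnnA at a low level, at 1.17 FPKM against 3.05 FPKM with DMSO (-0.90). With 17-AAG, Dna2 was not called (-0.18) until the expression trend was removed (-0.35). Rnaseh2c, a subunit of the ribonuclease that removes RNA primers, fell with EnnA and with 17-AAG (-1.20 and -0.73). Rpa3, the small RPA subunit, fell with both compounds (-0.62 with EnnA and -0.61 with 17-AAG), although Rpa1 and Rpa2 were not called. The 17-AAG calls of Rpa3 and Rnaseh2c were lost once the expression trend was removed (-0.33 and -0.45). Pold3, a polymerase delta subunit, fell with EnnA and with 17-AAG (-0.62 and -0.61), and Rnaseh2b fell with 17-AAG (-0.60) and was not called with EnnA (0.01).

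Of 6 genes that handle chromatin behind the fork, 4 fell and 0 rose with EnnA, and 3 fell and 0 rose with 17-AAG (1 lower with the trend removed). Uhrf1 and Dnmt1, which copy DNA methylation, fell with EnnA (-1.03, at most 0.25, and -0.42, SE 0.15) and were not called with 17-AAG (-0.09 and 0.19). The histone chaperone genes Nasp and Asf1b fell with EnnA (-0.81 and -0.64) and with 17-AAG (-0.55 and -0.63). Chaf1b fell with 17-AAG (-0.37) and was not called with EnnA (-0.22). The 17-AAG calls of Nasp and Chaf1b were lost once the expression trend was removed (-0.27 and -0.36). Of 25 further genes of nucleotide supply, 7 fell and 4 rose with EnnA (7 and 2 with the trend removed), and 10 fell and 0 rose with 17-AAG (6 lower with the trend removed). The share lower with EnnA is near that of all genes. Dck, the salvage kinase for deoxycytidine, fell to 3.77 FPKM with EnnA, against 11.4 FPKM with DMSO (-1.38, at most 0.34), and to 8.19 FPKM with 17-AAG, against 12.5 FPKM with DMSO (-0.55, SE 0.15). Dtymk, the kinase that follows thymidine kinase, fell with EnnA (-0.65) and with 17-AAG (-0.78), and the dNTP hydrolase gene Samhd1 fell with EnnA (-0.55) and was not called with 17-AAG (0.11). Nme1, a nucleoside diphosphate kinase, rose with EnnA (0.62) and fell with 17-AAG (-0.60). Its 17-AAG call was lost once the expression trend was removed (-0.31). Rrm2b, the p53-induced form of the small reductase subunit, fell with 17-AAG (-0.57, SE 0.15) and was not called with EnnA (0.23).

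**Figure D4:**
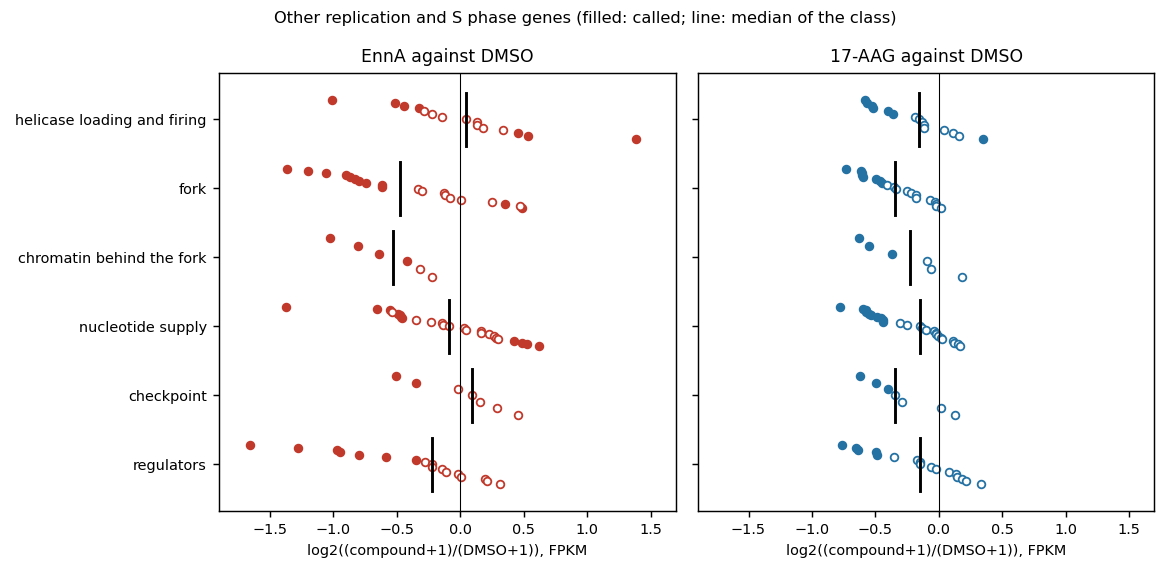
Log2 change of 90 replication and S phase genes outside the 35, by class, for EnnA against DMSO (left) and 17-AAG against DMSO (right), with 1 point per gene, filled where called, and a line at the median of each class. The fork and chromatin classes have medians of -0.47 and -0.53 with EnnA and -0.35 and -0.23 with 17-AAG, while helicase loading and firing has medians of 0.04 and -0.15.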

How the data were processed

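Messenger RNA libraries of E0771 cells were aligned to mm9 with STAR and compared with Cufflinks and Cuffdiff, per the submitters' processing notes, with versions not given in the sources used here. In both tables, the deposited values of each group were read as FPKM, pooled by the authors over 2 libraries, since the header does not name the unit. The deposited log2 fold change is DMSO over compound and was turned round (against the ratio of the FPKM columns, it was off by over 0.1 for 0 genes with EnnA and 2 with 17-AAG). The authors' p-value is from Cuffdiff, and their q-value equals its Benjamini-Hochberg adjustment over all listed genes.

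Reported changes used a pseudocount of 1 FPKM, and the implied error is the size of the change divided by the normal quantile of the 2-sided p. No label says that libraries of 1 group are separate cultures, so the p-values measure a spread that may be technical. Depth is unknown, and with it the precision of counting. The difference between the compounds was a z test with both errors combined as independent, which is conservative with shared DMSO libraries; the script was tested on simulated data. It is used for counts, since 2 libraries a group allow no exact p under 0.333. Calls on rescaled changes used the same errors with adjustment over all genes. Genes sharing a locus with another listed gene (5 of the 35), overlapping a coding gene in RefSeq GRCm38.p6 (9 of the 35: Mcm7, Cdc45, Gins2, Rfc4, Fen1, Lig1, Rpa1, Tk1 and Ccne2) or with pseudogene copies are uncertain, as strand use is not stated. Loci are printed as the authors give them. The members and the wider lists were chosen with earlier results of these data known. From the wider list, up to 4 called genes with the largest change per class and comparison were named, apart from 1 gene that is not reported here. Promoters are from RefSeq (GRCm38.p6), for the members with the largest changes that had an entry. Computation used Python 3.11.15, pandas 2.3.3, numpy 2.4.6, scipy 1.17.1 and matplotlib 3.10.9. Alternatives were a q under 0.01, a 2-fold minimum, a minimum of 1 FPKM, shared loci left out, pseudocounts of 0.1 and 0, centring, removal of the expression trend and unadjusted p.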

Additional observations from a re-analysis of the deposited data

How the results depend on the processing

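Under a q under 0.01, a minimum of 1 FPKM, shared loci left out (16 lower among 30), pseudocounts of 0.1 and 0 FPKM and centring on the median of all genes, between 16 and 20 of the 35 genes were lower and 3 higher with EnnA, and between 9 and 13 were lower and 0 higher with 17-AAG. Requiring a 2-fold change left 3 lower and 1 higher with EnnA, and 0 lower with 17-AAG. Removing the expression trend gave 24 lower with EnnA and 7 lower with 17-AAG, and the cause of that trend was not tested. At an unadjusted p under 0.05, 23 were lower with EnnA and 17 with 17-AAG, and 1 gene, Pole, was higher with 17-AAG. The medians stayed between -0.54 and -0.40 with EnnA and between -0.27 and -0.12 with 17-AAG. Between 4 and 8 genes differed between the compounds, among them Orc2, Cdt1 and Mcm2 in each of the 5 alternatives run on that test. Removal of the expression trend was not among these alternatives. With shared loci left out Lig1 was gone and Rfc5 was called, and with the bounded errors replaced Rfc5 and Tk1 were called. No paired analysis was possible because the tables hold 1 pooled value per group, and for the same reason leaving out each library was not run. Without values per library, how far a call rests on 1 library cannot be told.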

Other observations

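Regulators of S phase entry and the replication checkpoint were also examined. With EnnA, 7 of 17 regulators fell and 0 rose, and with 17-AAG 5 fell and 0 rose, where 24.9% of all genes were lower with EnnA and 16.1% with 17-AAG. With the expression trend removed, 4 regulators were lower and 1 higher with 17-AAG. E2f8, an atypical E2F that represses S phase genes, fell to 5.25 FPKM with EnnA, against 18.7 FPKM with DMSO (log2 change -1.66, SE at most 0.41), and to 12.7 FPKM with 17-AAG, against 20.5 FPKM with DMSO (-0.65, at most 0.16). E2f7, of the same kind, was at 1.24 FPKM with EnnA, against 3.40 FPKM with DMSO (-0.97, at most 0.24), and E2f1, an activating E2F, at 6.67 FPKM, against 13.8 FPKM (-0.95, at most 0.23). Neither was called with 17-AAG (-0.02 and 0.14). Skp2, part of the ubiquitin ligase that removes CDT1 and the CDK inhibitor p27, fell to 11.2 FPKM with EnnA, against 28.7 FPKM with DMSO (-1.28, at most 0.32), and to 22.1 FPKM with 17-AAG, against 31.4 FPKM with DMSO (-0.49, SE 0.14).

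With 17-AAG the leading regulators were Cdkn1a, the CDK inhibitor p21, which fell to 36.6 FPKM, against 62.8 FPKM with DMSO (-0.76, at most 0.19), E2f5 (-0.64, in a locus shared with 1810022K09Rik) and Ccna2, cyclin A2 (-0.49, in a locus shared with Exosc9). Cdkn1a and E2f5 were not called with EnnA (-0.11 and -0.02), and Ccna2 fell (-0.80). The 17-AAG call of Ccna2 was lost once the expression trend was removed (-0.21). Of 7 checkpoint genes, 2 fell and 0 rose with EnnA, which were Chek1 (-0.50) and Rad17 (-0.35), and 3 fell and 0 rose with 17-AAG, which were Hus1 (-0.62), Rad1 (-0.49) and Chek1 (-0.40). The EnnA share is near that of all genes, and the 17-AAG count was 1, Hus1 (-0.62), with the expression trend removed. Rad17 was not called with 17-AAG (-0.35). Hus1 and Rad1 encode parts of the same checkpoint clamp, and both were near 0 with EnnA (-0.01 and 0.09, SE 0.14 and 0.15).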
